A study of Mus musculus with 12 samples.

Results

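The genes described here encode proteins of the junctions between hepatocytes: the claudins Cldn1, Cldn2, Cldn3, Cldn12 and Cldn14, the tight junction proteins Ocln and Tjp1, and the connexins Gjb1 and Gjb2. They are 9 of the 18193 genes measured on the array, and 19 of its 45037 tested probesets. All probesets that the array's annotation gives to exactly 1 of these genes were taken. The set was chosen because Cldn2 is much lower after tunicamycin (TM), so its levels with TM are given as a description with no test.

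Tight junctions seal the space between neighbouring hepatocytes and keep bile in the canaliculus apart from the blood side. Claudins form the strands of the seal and set which ions pass, occludin sits in the same strands, and the scaffold protein ZO-1, encoded by Tjp1, ties them to the actin cytoskeleton. Connexin 32 and connexin 26, encoded by Gjb1 and Gjb2, build the gap junction channels through which hepatocytes exchange small molecules. In rat liver, claudin-2 is known to increase along the lobule towards the central vein.

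Liver RNA came from 12 mice, 1 animal and 1 Affymetrix array each, 8 h after an intraperitoneal injection. The 4 groups of 3 were Atf6a-/- mice given 2 mg/kg TM, Atf6a-/- mice given vehicle, wild-type (Atf6a +/+) mice given 2 mg/kg TM, and wild-type mice given vehicle, which was 150 mM dextrose in all 12. TM blocks N-linked glycosylation and so causes stress in the endoplasmic reticulum, and ATF6α is one of the sensors of this stress. The animals differed in age and sex, which the labels do not give for each animal. Neither the strain nor the extent of the Atf6a deletion is stated there.

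The values are log2 intensities, so a difference of 1 is a doubling. A gene was called changed at an adjusted p under 0.05 by limma and over 1.5-fold, and a gene with several probesets is represented by its brightest. Atf6 itself, at 1435444_at, read 10.19, 9.76 and 10.50 in Atf6a-/- livers with TM, 7.03, 7.15 and 7.79 in Atf6a-/- livers with vehicle, 10.75, 11.16 and 11.01 in wild-type livers with TM, and 8.74, 9.47 and 8.90 in wild-type livers with vehicle. Each Atf6a-/- group thus lay below the wild-type group of the same treatment without overlap, although neither difference was called (adjusted p = 0.0905 with TM and 0.184 with vehicle). Whether this probeset lies in the deleted stretch is not known here. Hspa5, the chaperone BiP that marks the stress response, rose by 1.45 in Atf6a-/- and by 1.88 in wild-type livers (adjusted p = 0.000103 and 2.18e-05). The summed level of 7 hepatocyte markers ranged from 17.19 to 17.27 over all 12 arrays. As a sum of linear values it is set mostly by the brightest markers, and it does not show that the share of hepatocytes was constant. Of these 7, 1 was called higher and 0 lower with TM in Atf6a-/- livers, and 0 were called in wild-type livers. Their log2 fold changes ranged from -0.19 to 0.94 in Atf6a-/- and from -0.16 to 0.36 in wild-type livers. Of all genes, 13.1% were called higher and 8.21% lower in Atf6a-/- livers, and 8.92% higher and 6.9% lower in wild-type livers. Each group held 1 array with signal from a Y-linked gene. In a tissue homogenate, fewer cells of a type and less RNA per cell cannot be told apart.

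Cldn2, a claudin that forms pores for small cations and water, had the lowest log2 fold change of all 18193 genes in Atf6a-/- livers and ranked 8 from the lowest in wild-type livers. Its probeset 1417231_at read 7.29, 6.89 and 6.88 in Atf6a-/- livers with TM, against 11.03, 11.06 and 10.91 in Atf6a-/- livers with vehicle. Wild-type livers read 7.61, 7.07 and 7.21 with TM, against 10.76, 10.90 and 10.90 with vehicle. The highest TM array lay 3.62 log2 units below the lowest vehicle array in Atf6a-/- livers and 3.15 below it in wild-type livers. The means differed by -3.98 (15.8-fold) in Atf6a-/- livers and by -3.56 (11.8-fold) in wild-type livers.

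The second Cldn2 probeset, 1417232_at, gave smaller differences of the same sign. It read 5.41, 6.29 and 5.56 in Atf6a-/- livers with TM, against 8.27, 7.97 and 7.96 with vehicle, a difference of -2.31. In wild-type livers it read 6.0, 5.81 and 5.77 with TM, against 7.75, 8.34 and 8.09 with vehicle, a difference of -2.20. Both probesets place the TM groups of the 2 genotypes next to each other, far below both vehicle groups, as the plot of the values by array shows.

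Of the 8 genes other than Cldn2, 4 fell with TM in Atf6a-/- livers (Cldn1, Cldn14, Ocln and Gjb1), against a background of 8.21% of all genes called lower. In wild-type livers 4 also fell (Cldn1, Cldn3, Cldn14 and Ocln), against a background of 6.9%. None was called higher in either genotype, where 13.1% of all genes were called higher in Atf6a-/- and 8.92% in wild-type livers. Since the set was chosen on the response to TM, nothing is read from these counts against the background. At an unadjusted p under 0.05, limma put Tjp1 and Gjb2 higher in Atf6a-/- livers and no gene higher in wild-type livers, and the methods' t-test put 0 higher in either. The median log2 fold change of the 8 genes was -0.65 in Atf6a-/- and -0.58 in wild-type livers, beside -0.10 and -0.06 over all genes.

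Cldn1 encodes a barrier-forming claudin of the canalicular tight junction, known in human liver as an entry factor of hepatitis C virus. Its brightest probeset, 1437932_a_at, read 6.75, 7.40 and 6.13 in Atf6a-/- livers with TM, against 9.11, 9.11 and 8.72 with vehicle. In wild-type livers it read 7.26, 6.20 and 7.26 with TM, against 9.58, 8.46 and 10.25 with vehicle. Without overlap between TM and vehicle, Cldn1 fell by 2.22 (standard error 0.43, 4.65-fold, adjusted p = 0.00197) in Atf6a-/- and by 2.52 (standard error 0.43, 5.75-fold, adjusted p = 0.00119) in wild-type livers. Wild-type livers with vehicle varied most, with an SD of 0.90.

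A second Cldn1 probeset, 1450014_at, read 5.59, 5.92 and 4.90 in Atf6a-/- livers with TM, against 7.02, 6.65 and 6.30 with vehicle. That difference of -1.18 missed the threshold (adjusted p = 0.0508). In wild-type livers this probeset read 5.45, 5.02 and 5.79 with TM, against 7.33, 6.52 and 8.49 with vehicle, and fell by 2.03 (adjusted p = 0.00417). The other Cldn1 probesets, 1438851_x_at and 1438850_at, read between 2.96 and 3.57 on all 12 arrays and were not called in any comparison.

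Cldn14 encodes a claudin known for its part in hearing, where its loss causes deafness in humans and mice, and it is also made in liver. It read 6.32, 6.06 and 6.25 in Atf6a-/- livers with TM, against 7.20, 7.07 and 6.87 with vehicle. Wild-type livers read 5.98, 5.89 and 5.68 with TM, against 7.37, 6.89 and 7.44 with vehicle. TM and vehicle did not overlap in either genotype. Cldn14 fell by 0.84 (standard error 0.15, adjusted p = 0.00112) in Atf6a-/- and by 1.38 (standard error 0.15, adjusted p = 4.01e-05) in wild-type livers.

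Cldn3 and Cldn12 moved less. Cldn3, a barrier-forming claudin, averaged 11.12 ± 0.29 in Atf6a-/- livers with TM and 11.58 ± 0.06 with vehicle (SD, n = 3 each), a difference of -0.46 that passed the p but not the fold (adjusted p = 0.0264). In wild-type livers Cldn3 averaged 11.03 ± 0.20 with TM and 11.63 ± 0.06 with vehicle, and fell by 0.61 (adjusted p = 0.00828). Its 4 probesets fell together by 0.60 to 0.66 in wild-type livers, whereas none was called in Atf6a-/- livers, where they differed by -0.46 to -0.36. The wild-type call lies just past 1.5-fold and was lost without wild-type TM replicate 2 (-0.49) or wild-type vehicle replicate 3 (-0.57), and without Atf6a-/- TM replicate 2 Cldn3 passed in Atf6a-/- livers too (-0.61).

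Cldn12, a claudin known with claudin-2 for calcium passage in the intestine, averaged 10.45 ± 0.12 in Atf6a-/- livers with TM and 10.86 ± 0.12 with vehicle, and 10.42 ± 0.06 in wild-type livers with TM and 10.86 ± 0.06 with vehicle (SD, n = 3 each). The differences of -0.41 and -0.44 passed the p (adjusted p = 0.00574 and 0.00506) but stayed under 1.5-fold. Its second probeset, 1433782_at, fell by 0.74 in wild-type livers (adjusted p = 0.000726) and differed by -0.53 in Atf6a-/- livers (adjusted p = 0.00488, under 1.5-fold). No Cldn12 array with TM overlapped vehicle at either probeset.

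Ocln, which encodes occludin, read 7.09, 7.14 and 7.42 in Atf6a-/- livers with TM, against 8.46, 8.66 and 7.75 with vehicle. Wild-type livers read 7.01, 6.61 and 6.98 with TM, against 8.33, 7.66 and 8.92 with vehicle. Ocln fell by 1.07 (standard error 0.29, adjusted p = 0.0140) in Atf6a-/- and by 1.44 (standard error 0.29, adjusted p = 0.0034) in wild-type livers. Without Atf6a-/- vehicle replicate 1 or replicate 2 the Atf6a-/- call was lost (adjusted p = 0.0533 and 0.066). Its second probeset, 1440220_at, fell as well, by 0.84 and 1.19 (adjusted p = 0.00542 and 0.00077).

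Tjp1, which encodes ZO-1, was not called in either genotype. It read 9.88, 9.63 and 10.24 in Atf6a-/- livers with TM, against 9.58, 9.65 and 9.37 with vehicle, and 9.58, 9.26 and 9.75 in wild-type livers with TM, against 9.64, 9.37 and 9.81 with vehicle. TM and vehicle overlapped in both genotypes. The differences were 0.39 (95% interval 0.02 to 0.76, adjusted p = 0.112) in Atf6a-/- and -0.08 (95% interval -0.45 to 0.30, adjusted p = 0.831) in wild-type livers.

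The connexins differed from each other. Gjb1, the main connexin of hepatocytes, read 11.81, 12.36 and 12.19 in Atf6a-/- livers with TM, against 12.90, 13.09 and 12.87 with vehicle, and fell by 0.83 (standard error 0.13, adjusted p = 0.000338). In wild-type livers it read 12.44, 12.34 and 12.36 with TM, against 12.92, 12.89 and 13.01 with vehicle. That difference of -0.56 passed the p (adjusted p = 0.00749) but lay just under 1.5-fold, and it passed both without wild-type TM replicate 1 or wild-type vehicle replicate 2 (both -0.59). The second probeset, 1448766_at, fell by 1.07 in Atf6a-/- livers (adjusted p = 0.0022) and differed by -0.58 in wild-type livers (adjusted p = 0.0829).

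Gjb2 read 13.22, 12.99 and 13.12 in Atf6a-/- livers with TM, against 12.80, 12.99 and 12.78 with vehicle, a difference of 0.25 (95% interval 0.05 to 0.45, adjusted p = 0.0643). In wild-type livers it read 12.72, 12.73 and 12.80 with TM, against 12.60, 12.65 and 12.73 with vehicle, a difference of 0.09 (95% interval -0.11 to 0.30, adjusted p = 0.578). TM and vehicle overlapped in both genotypes. Both intervals exclude a decrease of the size seen for Gjb1.

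**Figure D1:**
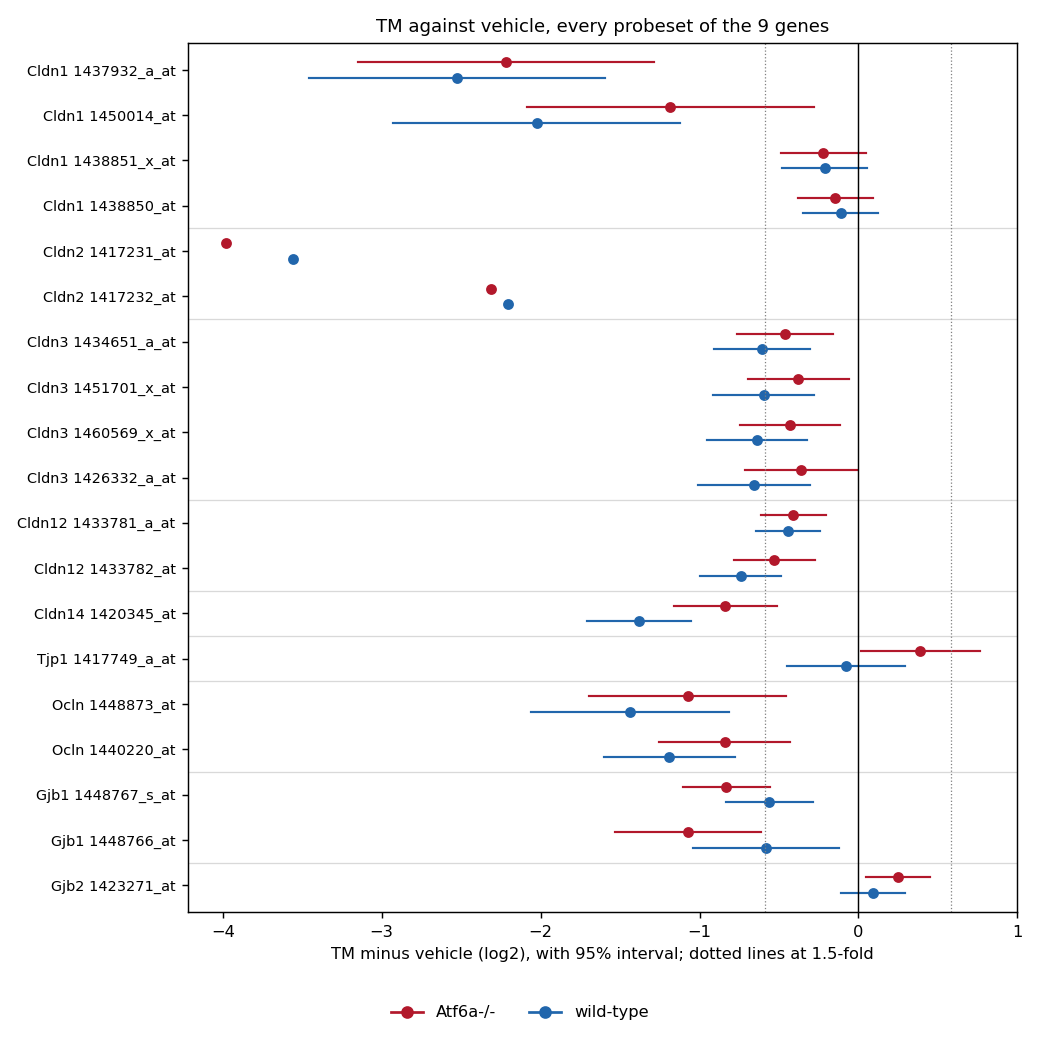
Log2 difference of TM minus vehicle in Atf6a-/- (upper point of each pair) and wild-type livers (lower point) for all 19 probesets, with limma's 95% interval and dotted lines at 1.5-fold. Cldn2 is shown without an interval because it was not tested, and 15 of the other 17 probesets lie below 0 in Atf6a-/- livers and 16 of 17 in wild-type livers.

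Over single probesets, 6 of the 17 outside Cldn2 were called lower in Atf6a-/- livers and 10 of 17 in wild-type livers, with 0 called higher in either. Of all tested probesets, 5.95% were called lower and 10.6% higher in Atf6a-/- livers, and 4.95% lower and 7.1% higher in wild-type livers, and nothing is read from the comparison for the reason given above. Probesets of 1 gene read the same transcripts and are no replicates of each other.

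The promoters of 3 of the genes are shown because Cldn2 and Cldn1 had the largest differences with TM while Gjb2 was not called. Each line gives the 250 bases before the transcription start, 5′ to 3′ on the strand of the gene, from RefSeq on GRCm38.p6. Capitals mark the TATA box letters TATAAA in Cldn2 and the letters GTTAAT, part of the HNF1 site, in Cldn1, and the Gjb2 window holds neither.
Cldn2 promoter, chrX:139800558-139800807, plus strand: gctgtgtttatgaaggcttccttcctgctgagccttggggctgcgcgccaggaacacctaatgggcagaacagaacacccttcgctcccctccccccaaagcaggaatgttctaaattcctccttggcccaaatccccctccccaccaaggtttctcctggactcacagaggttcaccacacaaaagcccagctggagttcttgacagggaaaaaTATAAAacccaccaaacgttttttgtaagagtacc
Cldn1 promoter, chr16:26371840-26372089, minus strand: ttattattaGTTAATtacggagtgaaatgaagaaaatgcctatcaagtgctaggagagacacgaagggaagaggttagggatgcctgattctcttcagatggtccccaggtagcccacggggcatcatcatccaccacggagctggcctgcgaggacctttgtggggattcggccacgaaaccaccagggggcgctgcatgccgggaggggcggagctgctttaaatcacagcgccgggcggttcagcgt
Gjb2 promoter, chr14:57104703-57104952, minus strand: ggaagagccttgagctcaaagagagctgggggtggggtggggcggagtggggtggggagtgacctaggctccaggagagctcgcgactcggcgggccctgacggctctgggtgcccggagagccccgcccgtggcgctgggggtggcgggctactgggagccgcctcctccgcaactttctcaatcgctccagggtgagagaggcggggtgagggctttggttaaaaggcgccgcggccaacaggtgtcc

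Promoter windows of all 9 genes, 17 in number since some genes have several starts, were searched on both strands and set beside all 32851 windows of that table. TATAAA was found in 12.37% of all windows, and among the 9 genes in Cldn2, 35 bases before the start, and in 1 window of Gjb1. GTTAAT was found in 6.43% of all windows, and here in Cldn1, 241 bases before the start, and in 1 window each of Cldn14 and Gjb1. The ATF6 site TGACGTGG (0.56% of all windows), the C/EBP-ATF element TGATGNAAT (0.82%) and the HNF4 element CAAAGTCCA (0.38%) were in 0 of the 17 windows, which says only that these letters are not within these 250 bases. The short box CCAAT was in 8 of 17 windows (33.9% of all) and CCACG in 4 of 17 (28.3% of all). A match of letters is a description and was not tested for binding.

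The question of whether ATF6α bears on these genes was addressed by comparing the genotypes. With TM, 0 of the 9 genes were called between Atf6a-/- and wild-type livers, where 4.42% of all genes were called. With vehicle 0 of 9 were called, as were 0% of all genes, and 0 of 9 differed in the size of the response to TM between the genotypes, against a background of 1.81%. At an unadjusted p under 0.05, limma found 3 with TM (Cldn14, Tjp1 and Gjb2), 0 with vehicle and 1 for the difference in response (Cldn14). The methods' t-test found 2 with TM (Cldn14 and Gjb2) and 0 with vehicle. The shares of all genes given above are at the threshold of a call, so nothing is read from these unadjusted counts.

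Cldn2 differed by -0.28 (95% interval -0.59 to 0.04, adjusted p = 0.422) between Atf6a-/- and wild-type livers with TM and by 0.14 (95% interval -0.17 to 0.46, adjusted p = 1) with vehicle. The difference between its responses was -0.42 (95% interval -0.87 to 0.02, adjusted p = 0.478), beside responses of -3.98 in Atf6a-/- and -3.56 in wild-type livers. Genotype differences as large as these responses lie outside the intervals. A decrease of 1.5-fold lies within the interval with TM and within that of the difference between the responses.

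Of the genes in the set, Gjb2 had the lowest adjusted p between the genotypes. At 1.28-fold with TM, Gjb2 also lay under the 1.5-fold that a call needs. With TM it was 0.36 higher in Atf6a-/- than in wild-type livers (95% interval 0.15 to 0.56, adjusted p = 0.0532), with no overlap between the 3 and 3 arrays, and with vehicle it was 0.20 higher (95% interval 0.00 to 0.40, adjusted p = 1), again without overlap. Cldn14 with TM was 0.36 higher in Atf6a-/- livers (95% interval 0.03 to 0.68, adjusted p = 0.28), also without overlap, and its response differed by 0.54 (95% interval 0.08 to 1.00, adjusted p = 0.334). Tjp1 with TM was 0.39 higher (95% interval 0.02 to 0.76, adjusted p = 0.313), and Gjb1 differed by -0.26 (95% interval -0.53 to 0.01, adjusted p = 0.375). The genotypes also did not overlap at both Ocln probesets with TM and at the brighter Cldn2 probeset with vehicle. Of the 19 probesets, 15 overlapped between the genotypes with TM and 17 with vehicle. The share over all probesets was not counted, so nothing is read from a lack of overlap between the genotypes. For Cldn1 the intervals were wide, from -1.08 to 0.79 with TM and from -1.38 to 0.48 with vehicle. The interval with TM includes changes of 1.5-fold in both directions. The interval with vehicle includes a decrease of 1.5-fold but not an increase of that size. For Ocln the interval ran from -0.27 to 0.97 with TM, which includes an increase of 1.5-fold. With vehicle it ran from -0.64 to 0.61, which includes changes of that size in both directions. The response of Ocln differed by 0.36 (95% interval -0.51 to 1.24, adjusted p = 0.822).

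**Figure D2:**
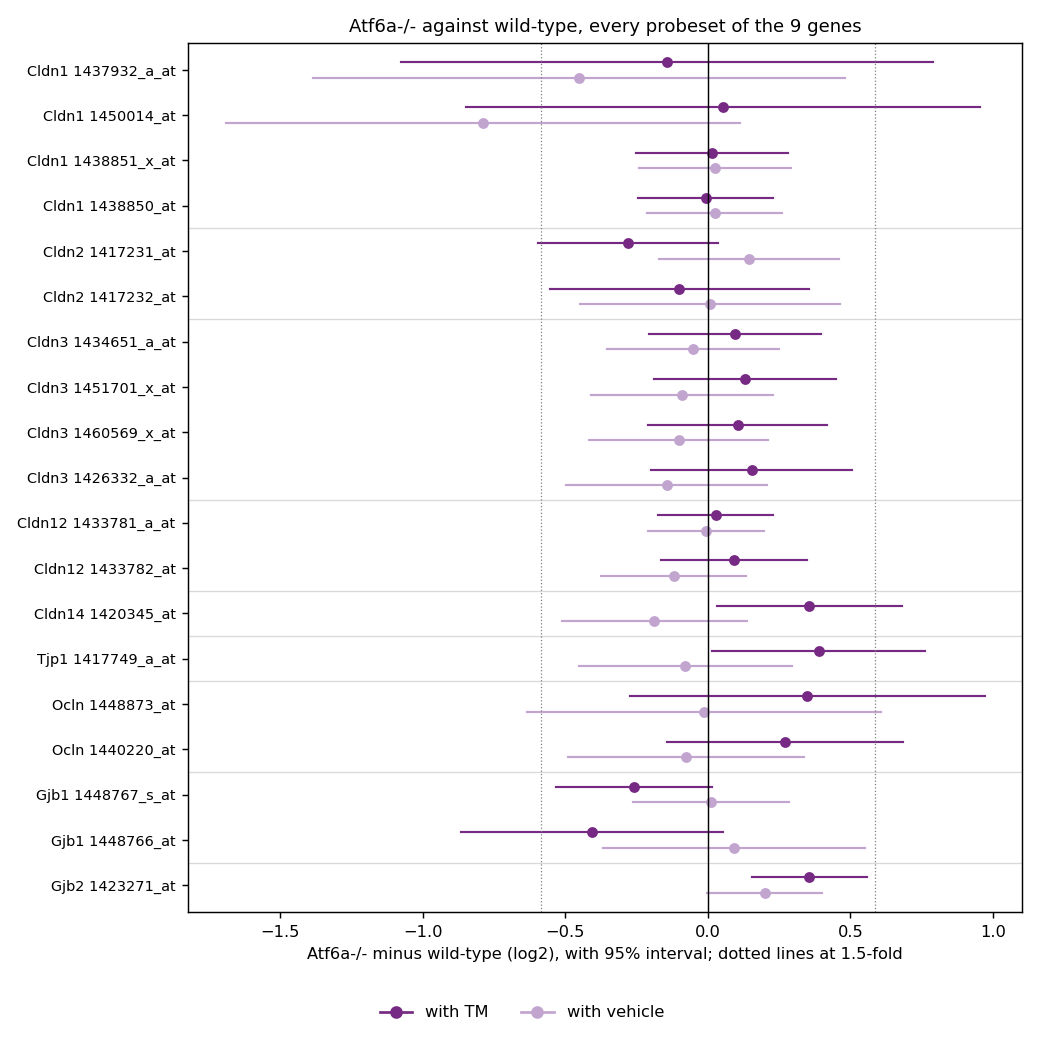
Log2 difference of Atf6a-/- minus wild-type livers with TM (upper point of each pair) and with vehicle (lower point) for all 19 probesets, with limma's 95% interval and dotted lines at 1.5-fold. No probeset was called in either treatment, and the widest intervals are those of the Cldn1 probesets 1437932_a_at and 1450014_at.

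Of 72 other junction genes on the array, 15 fell and 2 rose with TM in Atf6a-/- livers and 16 fell and 3 rose in wild-type livers. Those that fell were 20.8% of the 72 in Atf6a-/- livers, beside 8.21% of all genes, and 22.2% in wild-type livers, beside 6.9%. Those that rose were 2.78% in Atf6a-/- livers, beside 13.1% of all genes, and 4.17% in wild-type livers, beside 8.92%. The list was drawn up with results of these data known, and the shares are a description. Of the genes that fell, 13 did so in both genotypes, which is 86.7% of the Atf6a-/- and 81.2% of the wild-type ones. Without Atf6a-/- TM replicate 2, 4 genes in place of 2 were called higher in Atf6a-/- livers. The median log2 fold change of the 72 genes was -0.17 in Atf6a-/- and -0.12 in wild-type livers, beside -0.10 and -0.06 over all genes. The adjusted form of the methods' t-test did not keep the calls described below for Marveld3 and Krt18 in Atf6a-/- livers and for Tjp3, Cdh1, Igsf5 and Pkp2 in wild-type livers (adjusted p between 0.055 and 0.185).

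Among 23 other tight junction genes 6 fell and 1 rose in each genotype. Mpdz, a scaffold with many PDZ domains that binds claudins, read 6.86, 6.71 and 6.52 in Atf6a-/- livers with TM, against 8.89, 8.56 and 8.54 with vehicle, and 6.06, 5.86 and 6.31 in wild-type livers with TM, against 8.86, 8.60 and 9.35 with vehicle. It fell by 1.96 in Atf6a-/- livers and fell by 2.86 in wild-type livers (adjusted p = 8.91e-06 and 6.74e-07) without overlap. These values are of the brightest of 4 probesets, of which a second fell by 1.06 and 1.43 and the other two were not called. As the mean of the 4 probesets, Mpdz fell by 0.85 in Atf6a-/- and by 1.17 in wild-type livers. Tjp3, which encodes ZO-3, differed by -0.15 in Atf6a-/- livers (adjusted p = 0.7) and fell by 1.27 in wild-type livers (adjusted p = 0.00432), but the difference between these responses was not called (1.12, adjusted p = 0.225).

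Among 13 adherens junction genes 4 fell in Atf6a-/- and 5 in wild-type livers, and 0 rose. Lima1, an actin-binding partner of the cadherin complex, fell by 1.73 and 1.78 (adjusted p = 7.4e-06 and 8.89e-06), and Vcl, which encodes vinculin, by 0.94 and 1.35 (adjusted p = 4.99e-05 and 4.37e-06). As means of their probesets, Lima1 fell by 1.14 and 1.21 and Vcl by 0.63 and 0.87. Cdh1, which encodes E-cadherin, differed by -1.16 in Atf6a-/- livers (adjusted p = 0.0649) and fell by 1.81 in wild-type livers (adjusted p = 0.0107). Cdh1 lost that call without wild-type TM replicate 2 (-1.51).

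Among 8 desmosome genes and their keratins 4 fell in each genotype, led by Dsp, which encodes desmoplakin (-1.14 in Atf6a-/- and -1.61 in wild-type livers, adjusted p = 7.89e-05 and 8.48e-06). Krt18, the keratin of hepatocytes, rose by 0.77 and 0.79 (adjusted p = 0.000644 and 0.000789), and Pkp2, which encodes plakophilin 2, rose in wild-type livers by 0.61 (adjusted p = 0.00455). The call of Pkp2 was lost without wild-type TM replicate 2 or 3 or wild-type vehicle replicate 2, after quantile normalization (0.53) and as the mean of the gene's probesets (0.45), and in Atf6a-/- livers the gene differed by 0.55 (adjusted p = 0.00593, under 1.5-fold). Of 15 other claudins, 12 of them with a mean below the array's median probeset, Cldn5 alone was called. Cldn5 is the claudin of endothelial cells, and it fell by 0.73 and by 0.63 (adjusted p = 0.000266 and 0.0013), the second call being lost without wild-type TM replicate 3. Of 13 other gap junction genes, most of them with a mean below the array's median probeset, 0 were called with TM in either genotype by limma. Of the 13, 1 passed an unadjusted p under 0.05, by limma and by the methods' t-test alike. This was Gja4, a connexin of endothelial cells, which differed by 0.41 in wild-type livers (adjusted p = 0.133).

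**Figure D3:**
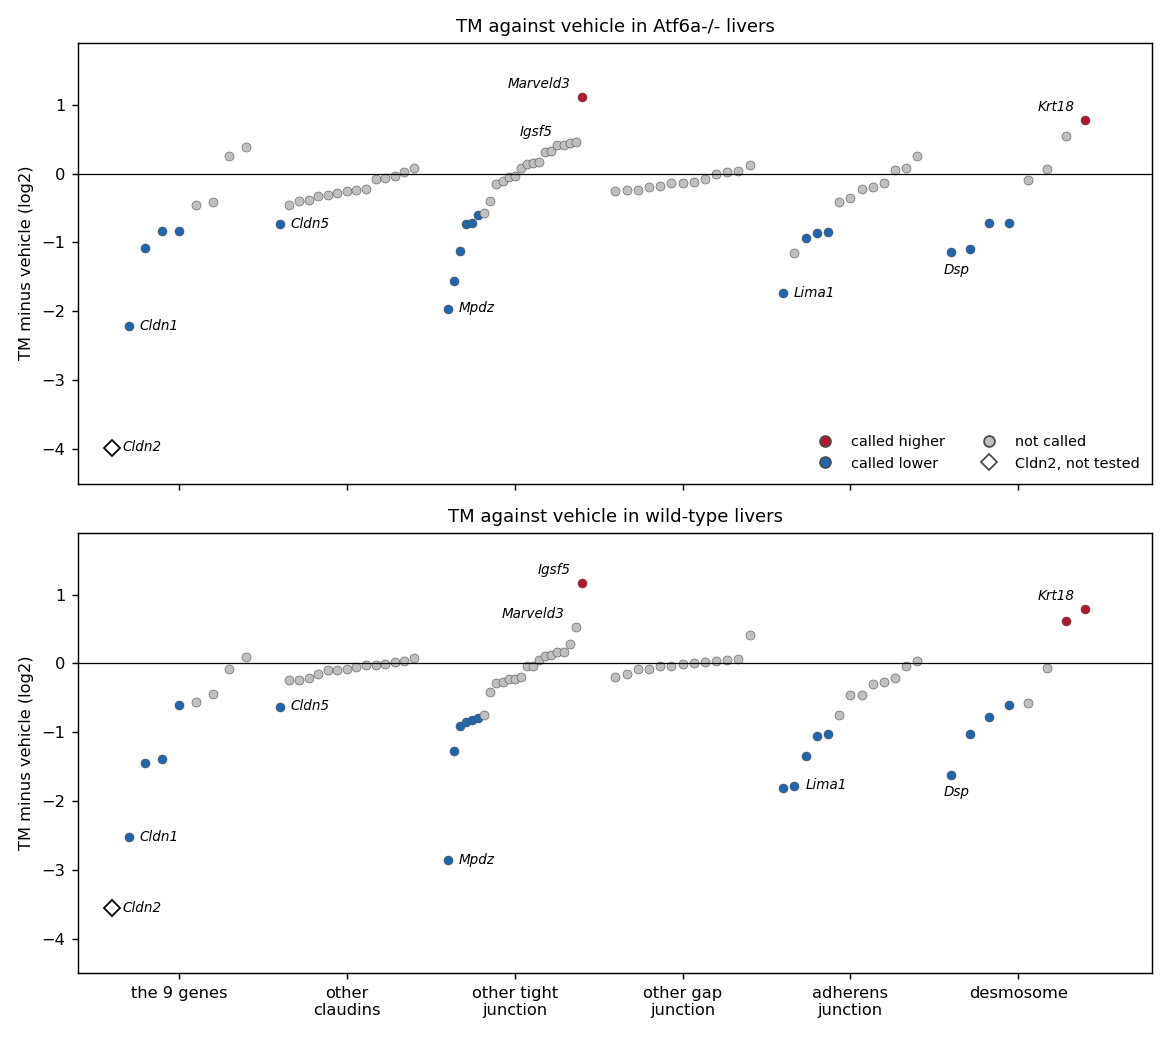
Log2 difference of TM minus vehicle for the 9 genes and the 72 other junction genes by family, in Atf6a-/- livers (upper panel) and wild-type livers (lower panel), 1 point per gene, red where called higher, blue where called lower and grey where not called. Genes are sorted within each family, and Cldn2, which was not tested, is the open diamond at -3.98 and -3.56.

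Between the genotypes with TM, 1 of the 72 genes was called, beside 4.42% of all genes. Igsf5, which encodes the junctional adhesion molecule JAM4, read 9.32, 9.23 and 9.43 in Atf6a-/- livers with TM, against 9.79, 10.41 and 10.05 in wild-type livers with TM. It was lower by 0.76 in Atf6a-/- livers (adjusted p = 0.041) and rose with TM in wild-type livers by 1.16 (adjusted p = 0.000801), whereas the 0.41 in Atf6a-/- livers was not called (adjusted p = 0.122). The difference between the responses was not called (-0.75, adjusted p = 0.266), and the call with TM was lost without any single one of Atf6a-/- TM replicates 1, 2 and 3, Atf6a-/- vehicle replicate 1 and wild-type TM replicates 2 and 3 (adjusted p between 0.0627 and 0.187). Marveld3, a tight junction protein related to occludin, rose in Atf6a-/- livers by 1.11 (adjusted p = 0.00214) and differed by 0.53 in wild-type livers (adjusted p = 0.12). Its other two probesets were not called, and as the mean of all of them Marveld3 differed by 0.31 in Atf6a-/- livers (adjusted p = 0.0962), so the call rests on 1 probeset. With vehicle 0 of 72 were called, as were 0% of all genes, with 0 at an unadjusted p under 0.05 by limma and 3 by the methods' t-test. For the difference in response 0 were called, beside 1.81% of all genes, with 11 at an unadjusted p under 0.05 by limma. The shares of all genes are at the threshold of a call, so nothing is read from the unadjusted counts.

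In both vehicle groups the array with Y-linked signal was the lowest of its group for Cldn1, Cldn14, Ocln, Tjp1 and Gjb1, a pattern noticed after the values were seen. For Ocln it read 7.75 in Atf6a-/- livers and 7.66 in wild-type livers, while the other vehicle arrays read 8.33 to 8.92. The same arrays had the lowest summed level of 8 Kupffer and macrophage markers of their groups, 13.00 in the Atf6a-/- and 12.92 in the wild-type array against 13.61 to 13.79 in the other vehicle arrays. Their summed level of 8 endothelial markers was lowest too, 10.71 and 10.70 against 10.99 to 11.58. So was that of 8 stellate cell markers, 12.44 and 12.46 against 12.73 to 13.21. No other marker list had its lowest sum in both arrays. The part of these markers in the result was not tested. With the Y-linked minus Xist level as a covariate, Cldn1 fell by 2.22 and Ocln by 1.08 in Atf6a-/- livers, and they fell by 2.52 and 1.43 in wild-type livers (adjusted p of 0.00187, 0.00448, 0.0011 and 0.000959). Without the 4 arrays, Cldn1 differed by -2.67 in Atf6a-/- and by -3.19 in wild-type livers.

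Markers of the zones in which claudin-2 differs moved unevenly. Beside the counts below, 8.21% of all genes were called lower and 13.1% higher in Atf6a-/- livers. In wild-type livers these shares were 6.9% and 8.92%. The lists are short and were drawn up with results of these data known, so the counts are a description. Of 12 pericentral markers 5 fell and 1 rose in Atf6a-/- livers and 3 fell and 1 rose in wild-type livers, and their summed level ranged from 15.67 to 15.83 in Atf6a-/- livers with TM, 16.02 to 16.12 in Atf6a-/- livers with vehicle, 15.77 to 15.89 in wild-type livers with TM and 15.93 to 16.11 in wild-type livers with vehicle. Lgr5, the R-spondin receptor of pericentral cells, fell by 1.02 and 1.21 (adjusted p = 0.000408 and 0.000182), and Lect2, a secreted protein, by 1.63 and 1.04 (adjusted p = 3.92e-06 and 0.00018). Over the 12 markers the log2 fold changes ranged from -1.63 to 0.63 in Atf6a-/- and from -1.21 to 0.80 in wild-type livers. Cyp2e1, a defining pericentral enzyme, differed by -0.01 and 0.02, and Glul, the pericentral glutamine synthetase, fell by 0.73 in Atf6a-/- livers (adjusted p = 0.00269) and differed by -0.41 in wild-type livers (adjusted p = 0.0772). Of 9 periportal markers 2 fell in each genotype, Aldh1b1 in both, Pck1 in Atf6a-/- livers and Hal in wild-type livers. Their summed level ranged from 15.88 to 16.05 in Atf6a-/- livers with TM, 16.02 to 16.17 in Atf6a-/- livers with vehicle, 15.60 to 15.82 in wild-type livers with TM and 16.00 to 16.05 in wild-type livers with vehicle, so that TM and vehicle overlapped in Atf6a-/- livers alone. The part of these markers in the levels of Cldn2 was not tested.

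Of the other cell types, bile duct cells also make claudins. The shares of all genes called are those given for the zone markers, and the counts are again a description. Of 7 cholangiocyte markers 1 fell in Atf6a-/- livers (Krt19, by 0.73) and 0 in wild-type livers, and Epcam differed by -0.14 and -0.11. The summed level of these markers ranged from 7.91 to 8.04 in Atf6a-/- livers with TM, 8.13 to 8.34 in Atf6a-/- livers with vehicle, 8.03 to 8.08 in wild-type livers with TM and 8.19 to 8.27 in wild-type livers with vehicle. The median probeset read 4.98 to 5.11 over the 12 arrays, so this is low for a sum of 7 markers. It is a weak measure of bile duct cells. Of 8 endothelial markers 1 fell and 1 rose in Atf6a-/- livers (Emcn, by 0.60, and Lyve1, by 1.52), 2 fell in wild-type livers (Emcn, by 0.70, and Kdr, by 0.65), and 6 were not called in each. Their summed level ranged from 10.72 to 10.96 in Atf6a-/- livers with TM, 10.71 to 11.11 in Atf6a-/- livers with vehicle, 10.75 to 11.003 in wild-type livers with TM and 10.70 to 11.58 in wild-type livers with vehicle.

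All 8 Kupffer and macrophage markers had negative differences in both genotypes, and 3 of them fell in Atf6a-/- livers, Marco by 1.01, Csf1r by 0.80 and Adgre1 by 0.79, while 0 were called in wild-type livers. Their summed level ranged from 12.52 to 13.06 in Atf6a-/- livers with TM, 13.00 to 13.66 in Atf6a-/- livers with vehicle, 13.05 to 13.25 in wild-type livers with TM and 12.92 to 13.79 in wild-type livers with vehicle. Of 8 stellate cell markers 1 fell in Atf6a-/- livers (Lrat, which esterifies retinol, by 1.54) and 2 fell in wild-type livers (Lrat, by 0.88, and Pdgfrb, by 0.87), and the median of the list was -0.40 in Atf6a-/- and -0.87 in wild-type livers. The summed stellate level ranged from 12.17 to 12.54 in Atf6a-/- livers with TM, 12.44 to 12.73 in Atf6a-/- livers with vehicle, 12.30 to 12.65 in wild-type livers with TM and 12.46 to 13.21 in wild-type livers with vehicle. The part of these lists in the junction genes was not tested.

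The genes whose pattern was most like that of Cldn2 over the 12 arrays, among 11768 genes brighter than the median probeset, were Pla2g15 (a lysosomal phospholipase, r = 0.993), Lgr4 (an R-spondin receptor, r = 0.992), Igfals (a carrier subunit of IGF in blood, r = 0.991), Nadk (an NAD kinase, r = 0.989), Parp9 (r = 0.989) and Slc9a3r1 (a scaffold of the apical membrane, r = 0.989). Lgr4, for example, averaged 8.85 ± 0.08 in Atf6a-/- livers with TM and 10.45 ± 0.08 with vehicle, and 8.90 ± 0.12 in wild-type livers with TM and 10.52 ± 0.14 with vehicle (SD, n = 3 each). The arrays form 2 clusters on Cldn2, so these values of r mainly describe the step between TM and vehicle. Among the junction genes r was 0.94 for Cldn12, 0.92 for Cldn14, 0.91 for Cldn1 and Gjb1, 0.87 for Cldn3 and 0.86 for Ocln, while it was -0.33 for Tjp1 and -0.48 for Gjb2.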

How the data were processed

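Liver RNA of 12 mice was hybridised to 1-colour Affymetrix arrays. The authors made the deposited log2 values by RMA in affy, per the labels, which name no version. RMA corrects background, quantile normalizes probes over arrays and summarises each probeset. The values were used as deposited. Of 45101 probesets, 64 Affymetrix controls were left out. The platform annotation gives 1 gene to 34945 of the 45037 tested, several to 932 and none to 9160. No probeset of the 9 genes was shared with another gene, and no filter on low values was applied.

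In limma 3.58.1 (R 4.3.3), 1 mean was estimated for each group from the 12 arrays together and variances were moderated by eBayes, with 8 residual and 4.25 prior degrees of freedom. Contrasts compared TM with vehicle in each genotype, Atf6a-/- against wild-type with TM and with vehicle, and the difference in the response to TM. Benjamini-Hochberg adjustment ran over every tested probeset. The procedure was tested on simulated data. The members, gene lists and alternatives were chosen with earlier results of these data known. Besides the 9 genes, the text names the called junction genes with the largest limma statistic (up to 4 higher and 4 lower per contrast), the called markers with the largest statistic (up to 2 per list) with the defining markers, and the 6 genes most correlated with Cldn2. Tjp3, Cdh1, Cldn5, Gja4 and Csf1r were named after their values were seen. Summed marker levels are log2 of summed linear values. The number of arrays limits the precision.

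Alternatives tried were normalization by quantiles or cyclic loess, centring on Btf3 and Ppia, a block of animal numbers, and a Y-linked minus Xist covariate. Others were dropping each array in turn or all 4 with Y-linked signal, bright probesets alone, other fold thresholds, and robust and trended variances. The methods' t-test was tried too, which the study names for other measurements, arrays of a later time among them. The last were fits to the arrays of 1 contrast alone, averaging a gene's probesets, and dropping the _s_at, _x_at and _a_at kinds of probeset. Promoters came from the RefSeq table of GRCm38.p6.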

Additional observations from a re-analysis of the deposited data

How the results depend on the processing

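No result changed its direction past a threshold. Of the values of the 9 genes over contrasts and alternatives, 1117 kept their direction and side of the threshold, 14 lost a call, 12 gained one, and 35 uncalled or untested values moved by more than the spread between replicates or changed sign near 0. With 4 of the 8 genes other than Cldn2 called lower in each genotype, the adjusted t-test called 2 in Atf6a-/- and 1 in wild-type livers, a 2-fold threshold called 2 in Atf6a-/- livers, and leaving out single arrays gave 3 to 5 in both genotypes. With _s_at, _x_at and _a_at probesets dropped, Cldn1 was not called in Atf6a-/- livers (-1.18, adjusted p = 0.0536), and as the mean of its 4 probesets it fell by 0.94 in Atf6a-/- and 1.22 in wild-type livers. Cldn3 was not called in wild-type livers after cyclic loess normalization (-0.58).

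Of the 72 other junction genes, 15 fell in Atf6a-/- livers, against 24 with no fold threshold, 6 at 2-fold, 9 as the mean of a gene's probesets and 14 to 16 without single arrays. The 16 of wild-type livers were 9 at 2-fold, 9 by the adjusted t-test and 14 to 16 without single arrays. The 2 that rose in Atf6a-/- livers were 5 without the 4 arrays with Y-linked signal, 4 with no fold threshold, 1 at 2-fold, 0 by the adjusted t-test, 1 as the mean of probesets and 2 to 4 without single arrays. The 3 that rose in wild-type livers were 1 at 2-fold, 1 by the adjusted t-test and 2 to 3 without single arrays. With TM, the 1 gene lower in Atf6a-/- livers, Igsf5, was 0 with the replicate block, at 2-fold and by the adjusted t-test, and 0 to 1 without single arrays. The 0 higher there were 1 with the Y-linked covariate, without those 4 arrays, with bright probesets alone and with trend and robust estimation, 2 by the unadjusted t-test and 0 to 2 without single arrays (2 without wild-type vehicle replicate 2). The 0 lower for the difference in response were 1 without the 4 arrays. The causes were not tested, apart from the thresholds, which act by their construction.

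The animal numbers in the labels did not pair the arrays. Deviations of same-numbered arrays correlated over 0.1 in 6 of 18 pairs of arrays (range -0.476 to 0.394). With the replicate block no member's call changed, and Igsf5 alone lost its call among the junction genes. Centring on Btf3 and Ppia moved the median of all probesets with TM to -0.156 in Atf6a-/- livers, where it was -0.088 in the deposited values. Ppia was read from a probeset also annotated to a predicted gene.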
